A study of Mus musculus with 4 samples.

Results

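Fc gamma receptors bind the constant part of IgG and couple antibody-coated particles to the cells of innate immunity. The genes described here are Fcgr1, Fcgr2b, Fcgr3, Fcgr4, Fcer1g and Fcgrt, and their rows were taken by symbol from the 17780 genes of the expression table. All 6 had a row. Lung tissue came from C57BL/6 mice (C57BL/6J in the methods) that were treated with vehicle, amiodarone, dabigatran or amiodarone + dabigatran, and each group was represented by 1 library. The labels give a treatment of 28 days, and the methods date the tissue collection slightly earlier. According to the methods the mice were male, the dosing was oral on weekdays, the vehicle was a carboxymethylcellulose suspension, and the left lung was used. Amiodarone is an anti-arrhythmic drug known for lung toxicity, and dabigatran is an oral inhibitor of thrombin. Some amiodarone-treated mice died during the treatment, so that only survivors could be sampled, and whether a library holds 1 mouse or a pool of mice is not given in the sources used here.

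In the mouse, Fcgr1, Fcgr3 and Fcgr4 encode activating receptors with high, low and intermediate affinity for IgG. They are held at the membrane by the common gamma chain Fcer1g, whose ITAM motif recruits the kinase Syk and leads to phagocytosis, an oxidative burst and cytokine release. Fcgr2b encodes the inhibitory receptor, which carries an ITIM motif, recruits the phosphatase SHIP-1 (Inpp5d) and raises the threshold for activation in macrophages, neutrophils and B lymphocytes. Fcgrt encodes the neonatal Fc receptor, which resembles an MHC class I chain, pairs with beta2-microglobulin (B2m) and protects IgG from degradation in endothelium and myeloid cells. In the lung, alveolar and interstitial macrophages, monocytes and neutrophils are the main cells that carry the activating receptors.

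The libraries held between 17498486 and 18903401 estimated reads, so that 3 reads, the most that a count of 0 allows, were between 1.59e-05% and 1.71e-05% of a library. The label "lung" was matched by the epithelial marker Sftpc, a surfactant protein gene, at 20077 FPKM with vehicle. FPKM is the number of fragments relative to the length of the transcript and the reads of the library, and it allows levels of different genes to be compared. With 1 library per group there was no replicate check and no test across animals. Each ratio is therefore given with an exact Clopper-Pearson 95% interval of its read counts, which covers counting error only, since sequenced fragments are not independent molecules. A gene was called beyond counting error when this interval excluded 1. In whole tissue, more cells of a type and more RNA per cell cannot be told apart.

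Fcgr2b, Fcgr4, Fcgr3 and Fcer1g lie on chromosome 1 (coordinates from RefSeq, GRCm38.p6), where Fcgr2b (chr1:170960558-170976071, minus strand), Fcgr4 (chr1:171018926-171029761, plus strand) and Fcgr3 (chr1:171051169-171065915, minus strand) occupy a stretch of 105 kb. Fcer1g (chr1:171229572-171234349, minus strand) lies further along, and the stretch from Fcgr2b to Fcer1g measures 274 kb. Fcgr1 is on chromosome 3 (chr3:96282909-96293969, minus strand) and Fcgrt on chromosome 7 (chr7:45092993-45103822, minus strand). The promoters of the activating receptors and of Fcgr2b are shown because the former 3 genes were the ones with the larger differences, as described below. Each window runs from 250 bases before to 50 bases after a RefSeq transcript start on GRCm38.p6, is written 5′ to 3′ on the strand of the gene, and shows in capitals any match to 3 motifs. These were the core of the PU.1 site (GAGGAA), the gamma-interferon activated site GAS (TTCNNNGAA) and the core of the interferon-stimulated response element ISRE (GAAANNGAAA), each searched on both strands, with N for any base. No matches overlapped. PU.1 is a transcription factor of myeloid cells, and GAS and ISRE are sites for STAT and IRF factors.
Fcgr4 (chr1:171018676-171018975, plus strand): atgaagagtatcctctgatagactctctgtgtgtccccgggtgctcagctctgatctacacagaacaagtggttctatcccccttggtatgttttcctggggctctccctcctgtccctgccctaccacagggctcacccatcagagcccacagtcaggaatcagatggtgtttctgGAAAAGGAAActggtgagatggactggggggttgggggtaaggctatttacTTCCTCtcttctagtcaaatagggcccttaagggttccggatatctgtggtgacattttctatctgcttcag
Fcgr1 (chr3:96293920-96294219, minus strand): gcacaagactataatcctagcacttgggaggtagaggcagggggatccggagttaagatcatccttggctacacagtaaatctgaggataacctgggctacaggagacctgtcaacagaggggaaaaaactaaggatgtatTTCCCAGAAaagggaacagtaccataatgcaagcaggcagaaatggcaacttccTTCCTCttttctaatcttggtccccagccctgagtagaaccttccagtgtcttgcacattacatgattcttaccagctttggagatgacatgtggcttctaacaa
Fcgr3 (chr1:171059354-171059653, minus strand): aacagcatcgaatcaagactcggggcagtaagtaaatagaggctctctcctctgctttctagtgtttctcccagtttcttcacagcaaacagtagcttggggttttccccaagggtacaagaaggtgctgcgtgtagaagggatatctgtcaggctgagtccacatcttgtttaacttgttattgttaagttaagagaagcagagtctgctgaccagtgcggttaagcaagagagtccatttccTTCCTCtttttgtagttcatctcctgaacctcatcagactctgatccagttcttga
Fcgr2b (chr1:170976022-170976321, minus strand): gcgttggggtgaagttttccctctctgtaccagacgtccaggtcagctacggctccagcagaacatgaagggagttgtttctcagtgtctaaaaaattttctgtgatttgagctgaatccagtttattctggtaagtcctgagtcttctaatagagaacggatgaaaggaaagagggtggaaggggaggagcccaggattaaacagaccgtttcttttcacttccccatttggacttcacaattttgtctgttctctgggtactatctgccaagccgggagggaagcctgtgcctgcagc

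Each of the 3 activating receptors held the PU.1 core in the reverse orientation (TTCCTC) close to its start, 22 bases before it in Fcgr4, 6 bases in Fcgr3 and 55 bases in Fcgr1. A second Fcgr3 window, shifted by 9 bases, holds the same match 15 bases before its start. The Fcgr3 windows lie within the annotated gene, as they belong to transcripts that start downstream of its outer end. An ISRE core (GAAAAGGAAA) stood 73 bases before the start of Fcgr4, and a GAS (TTCCCAGAA) 109 bases before that of Fcgr1. The windows of Fcgr2b, Fcer1g and Fcgrt held none of the 3 motifs. Over all 32851 RefSeq promoter windows of the same length, 28.3% held the PU.1 core, 8.30% a GAS and 3.44% an ISRE core. These matches are descriptions of letters, and binding was not measured.

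The activating receptors were higher in both libraries from amiodarone-treated mice. Fcgr4 measured 3.64 FPKM with vehicle, 17.43 FPKM with amiodarone, 3.68 FPKM with dabigatran and 18.36 FPKM with amiodarone + dabigatran. Fcgr3 measured 14.20, 43.42, 12.45 and 45.29 FPKM in the same order. Both genes thus had a pair of low libraries, without amiodarone, and a pair of high libraries, with amiodarone, and the members of each pair lay close together. Fcgr1, the high-affinity receptor, measured 1.42, 6.21, 1.80 and 4.25 FPKM. It was low in the same pair of libraries, but the library with both drugs lay between the dabigatran and the amiodarone library. Fcgr1 was the scarcest of the 6 genes in every library, and its 63 estimated reads with vehicle make its ratios the least precise.

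The inhibitory receptor Fcgr2b measured 11.29 FPKM with vehicle, 20.43 FPKM with amiodarone, 9.70 FPKM with dabigatran and 16.38 FPKM with both drugs. The common gamma chain Fcer1g was the most abundant of the 6 genes throughout, with 95.12, 195.56, 91.20 and 219.80 FPKM in that order. These genes were also low and high in the same pairs of libraries as the activating receptors. The neonatal receptor Fcgrt went the other way, with 53.63 FPKM with vehicle, 42.19 FPKM with amiodarone, 52.62 FPKM with dabigatran and 47.21 FPKM with both drugs.

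**Figure D1:**
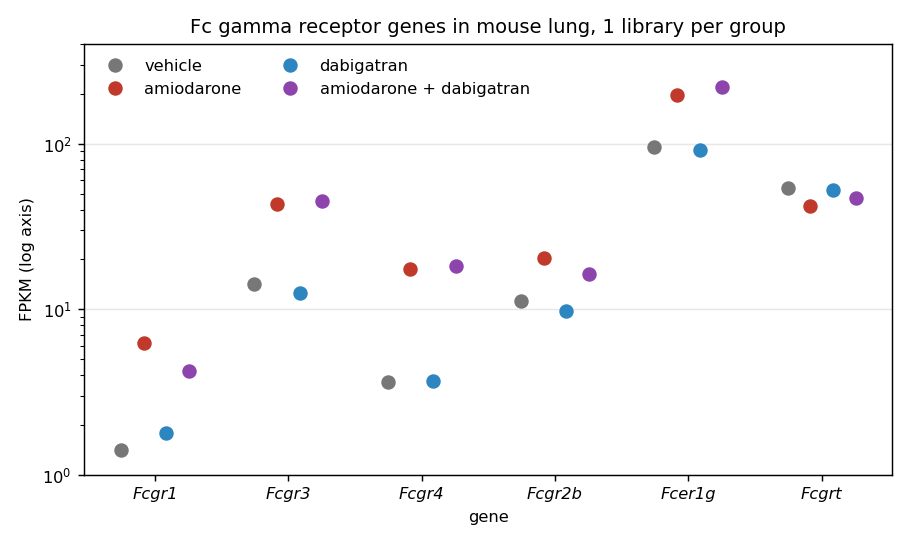
Level of each Fc gamma receptor gene in lung (FPKM, log axis) with 1 point per library, coloured by group. Fcgr1, Fcgr3, Fcgr4, Fcgr2b and Fcer1g are higher in the 2 libraries with amiodarone than in the 2 without it, and Fcgrt is lower (42.19 FPKM with amiodarone, 53.63 with vehicle).

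The order of the levels within a library changed accordingly. With vehicle and with dabigatran it ran from Fcer1g over Fcgrt, Fcgr3, Fcgr2b and Fcgr4 to Fcgr1, and each gene exceeded the next beyond counting error. The narrowest step in these libraries was that from Fcgr3 to Fcgr2b, with a ratio of 1.26 (1.07 to 1.48) with vehicle. With amiodarone, Fcgr3 and Fcgrt could not be ordered, the ratio being 1.03 (0.949 to 1.12). With both drugs, Fcgrt and Fcgr3 again did not differ beyond counting error, with a ratio of 1.04 (0.964 to 1.13), and neither did Fcgr4 and Fcgr2b, with a ratio of 1.12 (0.977 to 1.29). Among all genes of a library, 40.0% had a lower FPKM than Fcgr4 with vehicle and 74.4% with amiodarone. For Fcgr3 these shares were 69.5% and 89.9%, and for Fcer1g 95.9% and 98.1%.

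The comparison of amiodarone with vehicle addresses what the drug alone was accompanied by. Fcgr4 was 4.79-fold higher (95% counting interval 3.74 to 6.21), Fcgr1 4.37-fold (3.32 to 5.84) and Fcgr3 3.06-fold (2.70 to 3.47). Fcer1g was 2.06-fold higher (1.91 to 2.22) and Fcgr2b 1.81-fold (1.56 to 2.10), whereas the ratio for Fcgrt was 0.787 (0.731 to 0.847). All 6 genes had at least 1 FPKM in either library and were among the 13402 genes compared. On the scale of log2(FPKM + 1), which understates the change of scarce genes such as Fcgr1, 4 of the 6 genes (Fcgr1, Fcgr3, Fcgr4 and Fcer1g) were higher by 2-fold or more, against 1.87% of all genes compared. None was at least 2-fold lower, against 0.545% of all genes. Beyond counting error, 5 were higher, against 19.6% of all genes, and 1, Fcgrt, was lower, against 30.1%. The median difference of the 6 genes was 1.29 on this scale, and that of all genes was -0.05. In the order of all these differences, 48 genes stood above Fcgr4, 88 above Fcgr1, 93 above Fcgr3, 228 above Fcer1g and 367 above Fcgr2b.

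The comparison of amiodarone + dabigatran with dabigatran shares no library with the one above and shows amiodarone on the background of dabigatran. The ratio was 4.99 (3.91 to 6.44) for Fcgr4, 3.64 (3.19 to 4.15) for Fcgr3 and 2.36 (1.82 to 3.09) for Fcgr1. Fcer1g was 2.41-fold higher (2.24 to 2.60) and Fcgr2b 1.69-fold (1.44 to 1.99), and Fcgrt had a ratio of 0.897 (0.836 to 0.963). Of the 6 genes, 3 were at least 2-fold higher on the log2(FPKM + 1) scale, namely Fcgr3, Fcgr4 and Fcer1g, against 1.15% of 13379 genes, and 0 were at least 2-fold lower, against 0.434%. Fcgr1 was not counted because the added pseudocount of 1 brings its difference to 0.91 on this scale. Beyond counting error 5 were higher, against 19.5% of all genes, and 1 was lower, against 23.5%. The median difference was 1.08 for the 6 genes and -0.01 for all genes. At 1.5-fold in place of 2-fold, 5 of the 6 genes were counted as higher, against 3.25% of all genes.

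**Figure D2:**
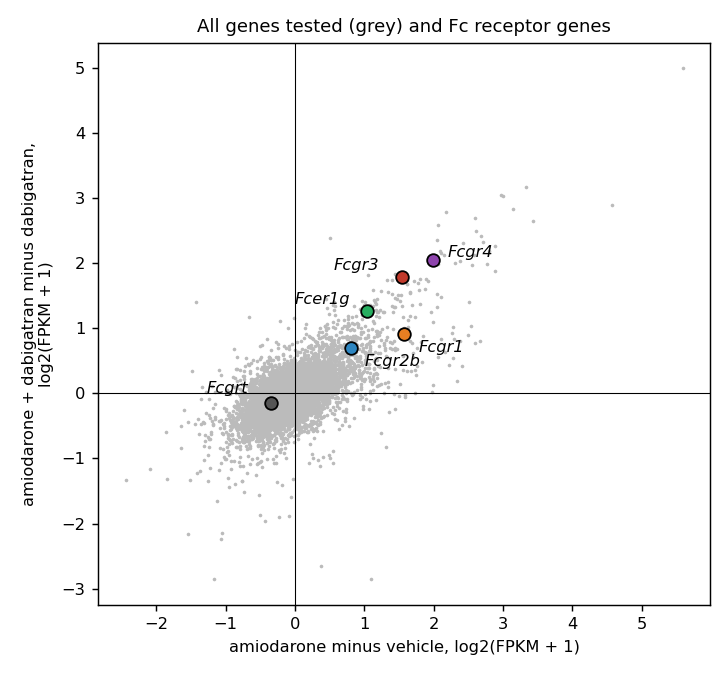
Each grey point is 1 of 13536 genes with at least 1 FPKM in a library of either comparison, placed by its log2(FPKM + 1) difference of amiodarone minus vehicle (horizontal) and of amiodarone + dabigatran minus dabigatran (vertical). Fcgr3, Fcgr4 and Fcer1g are among the 101 genes that are higher by 1 or more on both axes, Fcgr1 lies lower on the vertical axis (0.91) than on the horizontal (1.57), and Fcgrt lies slightly below 0 on both.

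Dabigatran alone was accompanied by no difference beyond counting error in any of the 6 genes. The ratios to vehicle were 1.27 (0.901 to 1.79) for Fcgr1, 0.859 (0.719 to 1.03) for Fcgr2b, 0.877 (0.746 to 1.03) for Fcgr3 and 1.01 (0.728 to 1.41) for Fcgr4. Those of the more abundant genes were bounded more tightly, at 0.959 (0.877 to 1.05) for Fcer1g and 0.981 (0.915 to 1.05) for Fcgrt. For Fcgr4 the counts are thus compatible with any ratio from 0.728 to 1.41. At least 2-fold differences in either direction were present in 0 of the 6 genes and in 0.157% of 13373 genes, and differences beyond counting error in 15.2% (higher) and 13.4% (lower) of all genes.

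Whether dabigatran changed the levels reached with amiodarone was read from the comparison of both drugs with amiodarone alone. Here the 6 genes split. Fcgr3 and Fcgr4 did not differ beyond counting error, with ratios of 1.04 (0.958 to 1.14) and 1.05 (0.915 to 1.21). Fcgr1 was lower with both drugs, with a ratio of 0.684 (0.570 to 0.821), and so was Fcgr2b, with 0.802 (0.704 to 0.913). Fcer1g was higher, at 1.12 (1.06 to 1.19), and the ratio of Fcgrt was 1.12 (1.04 to 1.21), which placed it nearer to the vehicle library. None of the 6 genes reached a 2-fold difference, against 0.475% of 13261 genes that did, and the 2 higher and 2 lower genes stand against 21.2% and 15.0% of all genes. Both drugs against vehicle gave 2.99 (2.25 to 4.04) for Fcgr1 and 1.45 (1.24 to 1.70) for Fcgr2b, so that neither was at the level of the vehicle library.

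The ratio with dabigatran (both drugs over dabigatran) was divided by the ratio without it (amiodarone over vehicle) to set these contrasts side by side. For Fcgr1 this quotient was 0.540 (0.371 to 0.785, a 95% interval of the read counts by normal approximation on the log scale), that is, the ratio was 2.36 in the presence of dabigatran and 4.37 in its absence. For Fcgr4 it was 1.04 (0.738 to 1.47), for Fcgr2b 0.933 (0.752 to 1.16) and for Fcgr3 1.19 (0.994 to 1.42), each interval including 1. The quotients of Fcer1g, 1.17 (1.06 to 1.30), and of Fcgrt, 1.14 (1.03 to 1.26), exceeded 1 beyond counting error. Among the 6 genes, only Fcgr1 had a quotient below 1 beyond counting error. The quotient was computed for these 6 genes only. How often it differs from 1 beyond counting error among all genes is therefore not known.

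**Figure D3:**
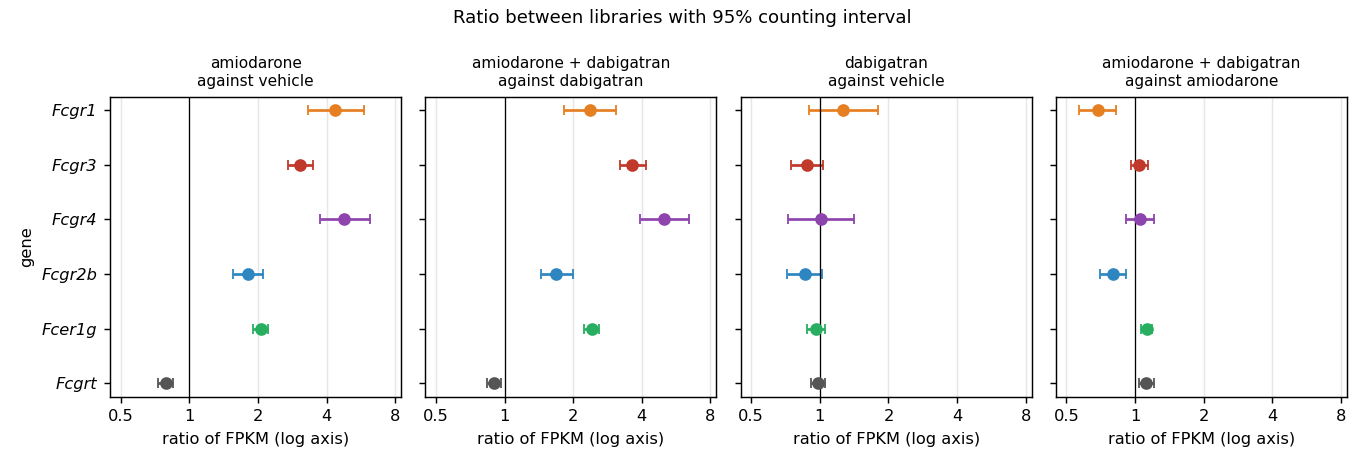
Ratio of FPKM between 2 libraries (log axis) for each gene in 4 comparisons, with bars for the 95% counting interval and a line at 1. All 6 intervals include 1 for dabigatran against vehicle, while 5 genes lie above 1 and Fcgrt below it in both comparisons of a library with amiodarone and one without, and Fcgr1 and Fcgr2b lie below 1 for both drugs against amiodarone.

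Fcgr2b and Fcgr3 share sequence, which bears on their values. Among stretches of 50 bases, 166 were common to a transcript of each gene, equal to 4.75% of the stretches of Fcgr2b and 12.8% of those of Fcgr3, and the longest shared run was 129 bases. No other pair of the 6 genes shared such a stretch. The estimated reads of the pair were fractional, by more than 0.005 of a read, in 3 of 4 libraries, as 274.44 and 325.56 with vehicle, but added up to whole numbers, 600 in the vehicle library, 1586 with amiodarone, 529 with dabigatran alone and 1543 with both drugs. Reads were thus divided between the genes by estimation, and their separate values are uncertain to that extent. With the reads of the pair summed, the ratio was 2.47 for amiodarone against vehicle, 2.74 for both drugs against dabigatran and 0.964 for both drugs against amiodarone.

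The make-up of the IgG-binding chains differed between the libraries. The summed FPKM of Fcgr1, Fcgr3 and Fcgr4 was 19.26 in the vehicle library, 67.06 with amiodarone, 17.93 with dabigatran alone and 67.9 with both drugs. Divided by Fcgr2b, the activating chains stood at 1.71 in the vehicle library, 3.28 with amiodarone, 1.85 with dabigatran alone and 4.15 with both drugs. Relative to vehicle this quotient was 1.92 (1.61 to 2.30) with amiodarone and 2.43 (2.02 to 2.92) with both drugs, and 1.08 (0.873 to 1.35) with dabigatran. These intervals were computed in the same way as those above and leave out the uncertainty in how reads were divided between Fcgr2b and Fcgr3. The balance of activating over inhibitory transcripts was thus higher in both libraries with amiodarone, and the highest value was that with both drugs.

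Fcgr2b accounted for 37.0% of the summed FPKM of the 4 chains with vehicle and 35.1% with dabigatran, but for 23.4% with amiodarone and 19.4% with both drugs. Fcgr4 accounted for 11.9% and 13.3% in the libraries without amiodarone and for 19.9% and 21.8% in those with it. Fcgr3 was the largest component in every library, between 45.1% with dabigatran and 53.7% with both drugs. Fcgr1 contributed the least, from 4.65% with vehicle to 7.10% with amiodarone. Fcer1g exceeded the activating chains that it serves in every library, by 4.94-fold with vehicle, 2.92-fold with amiodarone, 5.09-fold with dabigatran and 3.24-fold with both drugs. The surplus of the adaptor transcript was thus smaller in the libraries with amiodarone, although Fcer1g itself was higher there.

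**Figure D4:**
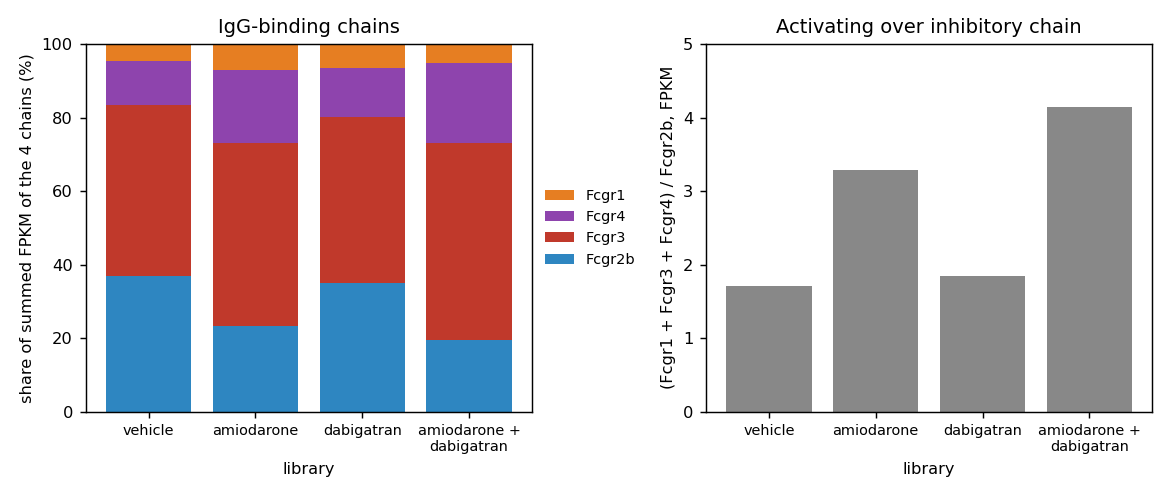
Left, share of each IgG-binding chain in their summed FPKM (%) per library. Right, the summed FPKM of Fcgr1, Fcgr3 and Fcgr4 divided by that of Fcgr2b: the share of Fcgr2b is 37.0% with vehicle, 23.4% with amiodarone and 19.4% with both drugs, and the quotient is 1.71, 3.28 and 4.15 in these libraries.

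The receptors act through shared adaptors and kinases, and most of these differed by less than 2-fold. Tyrobp, the other ITAM adaptor of myeloid cells, measured 86.35 FPKM with vehicle, 183.43 FPKM with amiodarone, 78.67 FPKM with dabigatran and 203.48 FPKM with both drugs, so that Fcer1g over Tyrobp stayed between 1.07 and 1.16. Of the 19 genes of the activating signalling list, 0 were at least 2-fold higher or lower with amiodarone. Beyond counting error 10 were higher, against 19.6% of all genes, and 3 lower, against 30.1%, with a median difference of 0.15. These shares, and 1.87% of all genes at least 2-fold higher, apply to each count of amiodarone against vehicle in the lists below. Syk, the kinase that binds the ITAM, measured 12.35, 13.74, 12.19 and 16.73 FPKM in the order vehicle, amiodarone, dabigatran and both drugs. The Src-family kinase Fgr measured 5.62 FPKM in the vehicle library and 9.19 FPKM with amiodarone, the adaptor Card9 4.77 and 8.42 FPKM, and the exchange factor Vav1 4.5 and 6.48 FPKM. The adaptor Blnk, which acts mainly in B lymphocytes, was lower, with 7.69 FPKM in the vehicle library and 6.06 FPKM with amiodarone. In the comparison of both drugs with dabigatran, 11 of the 19 genes were higher and 1 lower beyond counting error, against 19.5% and 23.5% of all genes. The median was 0.25, and Fgr was at least 2-fold higher.

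On the inhibitory side, Inpp5d, the phosphatase recruited by Fcgr2b, measured 18.31 FPKM with vehicle, 31.38 FPKM with amiodarone, 17.02 FPKM with dabigatran and 26.88 FPKM with both drugs. It was high and low in the same libraries as Fcgr2b. Ptpn6, the phosphatase SHP-1 that other ITIM receptors recruit, measured 24.97, 23.98, 20.99 and 30.20 FPKM. The adaptor Sla measured 5.69, 10.11, 6.09 and 13.61 FPKM. Of the 9 genes of this list, 4 were higher and 2 lower with amiodarone beyond counting error, against 19.6% and 30.1% of all genes. The median was 0.09.

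Other receptors of the same signalling class also differed between the libraries. Of the 9 genes on the list of other ITIM receptors of myeloid cells, 4 were at least 2-fold higher with amiodarone than with vehicle and 8 were higher beyond counting error, with a median of 0.99. Cd300lf measured 4.10 FPKM with vehicle, 25.62 FPKM with amiodarone, 4.03 FPKM with dabigatran and 19.69 FPKM with both drugs, and Lilrb4a 12.58, 57.39, 10.08 and 48.41 FPKM. Its close relative Lilr4b, which is on the list although it lacks the motif, measured 5.59 FPKM in the vehicle library and 27.02 FPKM with amiodarone, and Pirb, which binds MHC class I, 8.22 and 23.35 FPKM. The ratio of Fcgr2b, 1.81, lay within the range of the list, which ran from 1.06 for Clec12a to 6.25 for Cd300lf. In both drugs against dabigatran, 6 of the 9 were at least 2-fold higher, against 1.15% of all genes, with a median of 1.36.

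Of the other receptors that use Fcer1g, 8 of the 10 with a row had at least 1 FPKM in either library. With amiodarone 4 of these were at least 2-fold higher than with vehicle, 6 were higher and 1 lower beyond counting error, and the median was 0.93. The C-type lectin Clec4d measured 1.25 FPKM with vehicle, 10.09 FPKM with amiodarone, 1.06 FPKM with dabigatran and 7.26 FPKM with both drugs, and Clec4n, the receptor Dectin-2, 3.41, 7.96, 4.77 and 9.38 FPKM. Of Tyrobp and its partners, amiodarone was accompanied by levels at least 2-fold higher in 3 of 7, among them Trem2, a lipid receptor of macrophages, with 2.74 FPKM in the vehicle library and 10.41 FPKM with amiodarone. All 6 genes of the phagocyte oxidase, which Fc receptors trigger, were higher with amiodarone beyond counting error, with a median of 0.49. Its catalytic subunit Cybb measured 12.92, 20.12, 10.90 and 23.81 FPKM, followed by Ncf1 and Cyba with ratios to vehicle of 1.46 and 1.42.

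**Figure D5:**
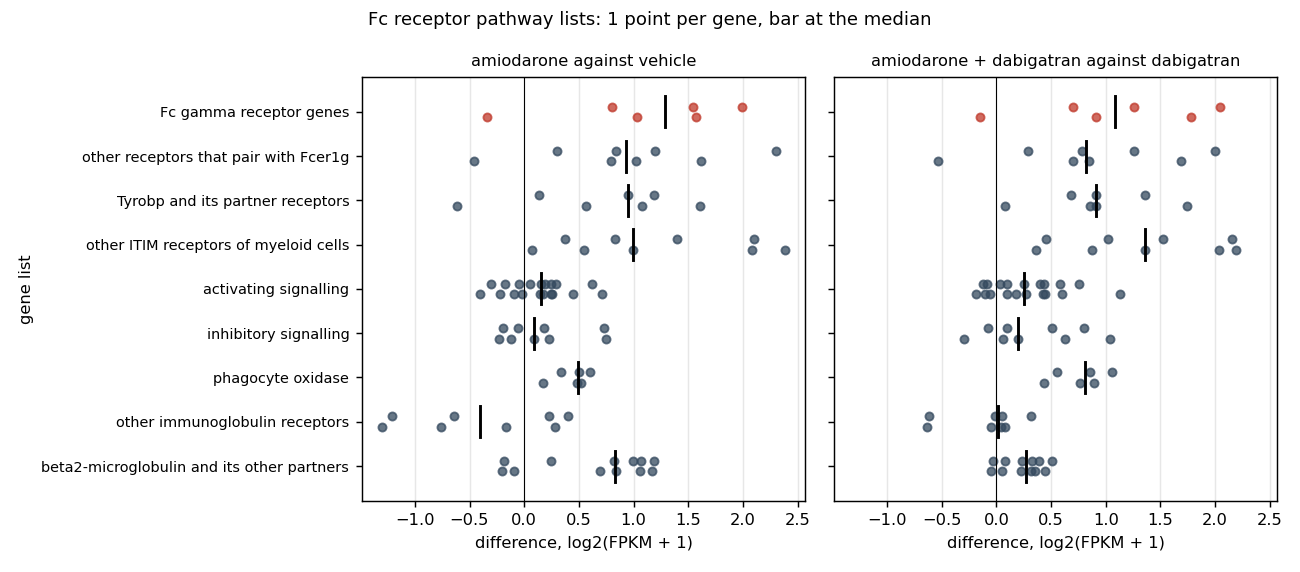
Difference of each gene on the log2(FPKM + 1) scale (1 point per gene, bar at the median of the list) in 2 comparisons that share no library. With amiodarone against vehicle the median is 1.29 for the Fc gamma receptor genes, 0.99 for other ITIM receptors, 0.93 for other partners of Fcer1g, 0.15 for activating signalling and -0.40 for other immunoglobulin receptors.

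Receptors for other immunoglobulin classes went in several directions. Of the 12 genes, 8 had at least 1 FPKM in either library, and with amiodarone 3 were higher and 4 lower beyond counting error, with a median of -0.40. Fcrla, an Fc receptor-like protein of B lymphocytes, measured 9.91 FPKM with vehicle, 3.43 FPKM with amiodarone, 8.98 FPKM with dabigatran and 5.43 FPKM with both drugs. Fcer2a, the low-affinity IgE receptor CD23, measured 14.14, 5.56, 12.82 and 8.0 FPKM, and Fcmr, the IgM receptor, 30.55, 17.62, 27.44 and 28.22 FPKM. These 3 genes are characteristic of B lymphocytes, and 9 of 9 markers of that cell type were lower with amiodarone beyond counting error, with a summed level of 221.68 FPKM with vehicle, 84.27 FPKM with amiodarone, 189.95 FPKM with dabigatran and 146.25 FPKM with both drugs. Fcgr2b, which B lymphocytes also express, was highest in the amiodarone library, where these markers were lowest. Pigr, which carries IgA across epithelium, measured 29.02 FPKM in the vehicle library and 38.56 FPKM with amiodarone, and Trim21, the cytosolic IgG receptor, 6.97 and 8.70 FPKM. Fcer1a and Ms4a2, the chains of the high-affinity IgE receptor that define mast cells and basophils, were under 0.25 FPKM in all 4 libraries, so that the signal of Fcer1g came with almost no transcript of that partner. Of the immunoglobulin chains, Jchain, the joining chain of IgA and IgM, had a row and measured 6.89, 6.02, 9.85 and 5.52 FPKM, and the others were not analysed here.

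Fcgrt and its partner went apart. B2m measured 1300.94 FPKM with vehicle, 2600.80 FPKM with amiodarone, 1785.72 FPKM with dabigatran and 2081.28 FPKM with both drugs, and B2m over Fcgrt was 24.3, 61.6, 33.9 and 44.1. Of the 12 genes for B2m and its other partners, 4 were at least 2-fold higher with amiodarone than with vehicle, namely H2-Q6, H2-Q7, H2-T22 and H2-T23 with ratios from 2.10 to 2.32. Beyond counting error 9 were higher and 2 lower. The lower ones, Hfe with a ratio of 0.864 and Mr1 with 0.874, are class I-like chains as Fcgrt is, and Cd1d1, also such a chain, had a ratio of 0.922 (0.710 to 1.20). Endothelial markers, the known site of much Fcgrt expression, summed to 1140.7 FPKM in the vehicle library and 1193.9 FPKM with amiodarone, with 5 of 8 higher and 2 lower beyond counting error. For both drugs against dabigatran, where Fcgrt was also lower, 8 of 8 were lower beyond counting error, against 23.5% of all genes. The sums were 1061.7 FPKM with both drugs and 1317.1 FPKM with dabigatran.

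Markers of macrophages and neutrophils were higher in the same libraries as the activating receptors, and those of other cells that carry these receptors were not uniformly so. Of 12 macrophage markers, 11 were higher with amiodarone than with vehicle beyond counting error and 6 at least 2-fold, and none was at 0 in any library. Their summed level was 3714.6 FPKM with vehicle, 5622.4 FPKM with amiodarone, 4022.9 FPKM with dabigatran and 5288.4 FPKM with both drugs. Lyz2, also a gene of other lung cells, alone made up between 87.3% and 91.8% of this. Cd68, a lysosomal protein of macrophages, measured 28.58, 77.16, 25.79 and 89.19 FPKM, and Adgre1, which encodes F4/80, 4.16, 7.69, 4.61 and 8.98 FPKM. Csf1r, the receptor for the macrophage growth factor, measured 38.67, 40.69, 40.92 and 44.86 FPKM and was the marker without a difference beyond counting error. Of 9 neutrophil markers compared, 8 were higher with amiodarone and 7 at least 2-fold, and the list summed to 96.78 FPKM with vehicle, 606.71 FPKM with amiodarone, 73.25 FPKM with dabigatran and 442.55 FPKM with both drugs. S100a9, a cytosolic protein of neutrophils, measured 45.03 FPKM in the vehicle library and 276.26 FPKM with amiodarone.

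Markers of monocytes summed to 437.7, 631.81, 523.54 and 485.25 FPKM in the order vehicle, amiodarone, dabigatran and both drugs, of which Ace, also a gene of endothelium, made up 280.63, 417.61, 326.62 and 329.99 FPKM. Within this list Ly6c2, a gene of classical monocytes, measured 28.22, 115, 34.93 and 75.82 FPKM. Nr4a1, a gene of patrolling monocytes but also of other cells, measured 81.36, 35.50, 115.06 and 15.02 FPKM. Of other genes of patrolling monocytes, Cx3cr1 measured 6.85, 5.27, 6.89 and 4.84 FPKM, and Spn 7.79, 7.76, 9.54 and 9.28 FPKM. Of the 8 genes of the list, 4 were higher and 2 lower with amiodarone than with vehicle beyond counting error. Alveolar macrophage markers summed to 419.14, 1129.3, 473.58 and 1365.3 FPKM, but Chil3 alone made up 90.27, 731.2, 113.43 and 940.25 FPKM of this. Car4, also a gene of endothelium, made up 146.27, 193.83, 174.05 and 152.89 FPKM, more than Chil3 with vehicle and with dabigatran. Of the 11 genes, 6 were higher and 2 lower with amiodarone beyond counting error, the lower ones being Ear1, with a ratio of 0.201, and Ear2, with 0.629. Natural killer cells, which also carry Fcgr3, had markers that summed to 50.33, 61.93, 88.63 and 76.37 FPKM. Their highest sum was that with dabigatran, where Fcgr3 did not differ from vehicle beyond counting error (ratio 0.877, 0.746 to 1.03). T lymphocyte markers summed to between 36.09 and 42.01 FPKM, and those of dendritic cells to between 30.7 and 34.95 FPKM. Mast cell and basophil markers summed to between 35.95 and 45.02 FPKM, of which Kit, also a gene of other lung cells, made up most, and those of eosinophils to between 2.37 and 5.91 FPKM, with Ccr3 and Prg2 at 0 in the vehicle library. The part of any of these cell types in the differences of the receptors was not tested.

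Set against the summed macrophage markers, the receptors did not all scale alike. Lyz2, which other lung cells also express, made up most of this sum, so the quotients are not levels per macrophage. Relative to the quotient with vehicle, the quotient with amiodarone was 3.16 for Fcgr4, 2.89 for Fcgr1 and 2.02 for Fcgr3, and it was 1.36 for Fcer1g, 1.20 for Fcgr2b and 0.520 for Fcgrt. Without the dominating Lyz2, a choice made after seeing the data, the values were 2.13, 1.94 and 1.36 for the activating receptors and 0.914, 0.805 and 0.350 for Fcer1g, Fcgr2b and Fcgrt. With amiodarone, Fcgr4, Fcgr1 and Fcgr3 were thus above 1 with either sum of macrophage markers, while Fcer1g and Fcgr2b changed sides. Neutrophil and monocyte markers were not used as divisors. Their sums with amiodarone were 6.27 and 1.44 times those with vehicle, so these quotients do not account for such cells. With both drugs the order of the activating receptors was Fcgr4 at 3.54, Fcgr3 at 2.24 and Fcgr1 at 2.10, and 2.39, 1.51 and 1.42 without Lyz2. In that library Fcer1g stood at 1.62 and 1.10, Fcgr2b at 1.02 and 0.688, and Fcgrt at 0.618 and 0.418, with and without Lyz2.

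The genes with the most similar profile were sought among 10148 genes with at least 5 FPKM in a library, by the Euclidean distance between centred log2(FPKM + 1) values over the 4 libraries. With 4 values per gene this is a description and says nothing about common control. Fcer1g was nearest to Tyrobp, at a distance of 0.09, followed by Gda and Mmp9. Fcgr3 was nearest to Ms4a6d (0.13), Cd68 (0.14) and Il1b (0.20), which are genes of macrophages and monocytes. Ms4a6d measured 3.17 FPKM with vehicle, 12.7 FPKM with amiodarone, 2.96 FPKM with dabigatran and 12.13 FPKM with both drugs. Fcgr4 was nearest to Slc39a2 (0.07), a zinc transporter, Atp6v0d2 (0.16), a subunit of the vacuolar proton pump, and F7 (0.27), encoding coagulation factor VII, with 2.52, 11.26, 2.99 and 12.49 FPKM. Fcgr2b was nearest to the glutamine synthetase Glul (0.05) and to Tinagl1 (0.06).

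Fcgr1 stood apart from the other activating receptors in this respect as well. Its nearest genes were Igtp (0.08), an interferon-inducible GTPase, Sema7a (0.12) and Xdh (0.14). Igtp measured 18.1 FPKM with vehicle, 57.42 FPKM with amiodarone, 21.61 FPKM with dabigatran and 43.69 FPKM with both drugs, so that the library with both drugs was intermediate as for Fcgr1. With a pseudocount of 0.1 in place of 1, however, none of these 3 genes remained among the nearest 3 of Fcgr1, and 1 of 3 did so for each of Fcgr4 and Fcer1g. Fcgrt, with its narrow range, was nearest to Cdhr4, Grb7 and Nudt13, at distances from 0.01 to 0.02. Among the 6 genes themselves, Fcgr3 and Fcgr4 were the closest pair, at 0.38, and Fcgr4 and Fcgrt the most distant, at 2.27. Fcgr1 was 0.62 from Fcgr3 and 0.87 from Fcgr4.

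The neighbours of the receptor cluster on chromosome 1 did not share its differences throughout. Gm39701, which lies 10.8 kb before Fcgr2b, measured 8.84 FPKM with vehicle, 12.94 FPKM with amiodarone, 6.43 FPKM with dabigatran and 10.73 FPKM with both drugs, and its ratio of amiodarone to vehicle was 1.46 (1.30 to 1.65). Cfap126, a gene of cilia 48.0 kb beyond Fcgr3, measured 66.17 FPKM in the vehicle library and 52.61 FPKM with amiodarone, with a ratio of 0.795 (0.726 to 0.871). Apoa2, an apolipoprotein gene beside Fcer1g, measured 1.15, 0.24, 0.07 and 0.12 FPKM, with a ratio of 0.209 (0.0363 to 0.836). The genes next to Fcgr1, Hist2h4 and BC107364, did not exceed 0.17 FPKM. Beside Fcgrt, Rcn3 at a distance of 670 bases measured 54.45, 39.71, 64.40 and 53.23 FPKM, with a ratio of 0.729 (0.672 to 0.792).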

How the data were processed

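Poly(A)-selected lung RNA was sequenced by the authors with DNBseq, 1 library per group. Reads were mapped with HISAT and Bowtie2 to GRCm38.p6 and its gene sequences, and expression was calculated with RSEM. The deposited table holds, for each gene and library, an estimated count of reads, used as deposited and rounded for intervals only, and a normalized value. Its unit is not named in the sources used here. The deposited values behaved as FPKM, since reads per value differed between libraries by the ratio of total reads (1.07 for amiodarone over vehicle in both). The 8 columns of means over libraries were not used.

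Groups were taken from the labels. Ratios of FPKM, their exact intervals at 95%, the counts at 2-fold among genes at 1 FPKM or more in either library (pseudocount 1), list counts and profile distances were computed with Python 3.11.15, numpy 2.4.6, pandas 2.3.3 and SciPy 1.17.1, and figures were drawn with matplotlib 3.10.9. The interval calculation was tested on simulated data. No p-value is given. The set of 6 genes (taken by symbol, with no rule on their values) and the 24 gene lists (212 genes) were chosen with earlier results of these data known.

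Named genes are the 6 receptors; per list up to 4 genes with the largest difference between amiodarone and vehicle among those with at least 5 FPKM in either; 13 fixed genes such as Syk, Inpp5d and B2m; the 3 nearest profiles; and adjacent genes. Lists of cell markers are given mainly by their sums. A few genes under this rule are not reported here. Promoter windows matched all 6 genes. Alternatives were median-ratio scaling (12728 genes, factors from 0.976 to 1.01), reads per library total, pseudocounts, a 5 FPKM filter or none, and 1.5-fold. Summing the reads of Fcgr2b and Fcgr3, and leaving out Lyz2, were chosen after seeing the data.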

Additional observations from a re-analysis of the deposited data

How the results depend on the processing

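No paired analysis was possible because each group holds 1 library. All 24 ratios of the 6 genes stayed within their counting intervals under median-ratio scaling and under reads per library total. The count of genes at least 2-fold higher for both drugs against dabigatran was 3, and 5 at 1.5-fold, by construction of the lower threshold. No other count of the 6 genes moved by over 1.5 times under any alternative. Results of the gene lists were less stable. Of their medians, 19 moved and 70 did not with the 5 FPKM filter. With a pseudocount of 0.1, 18 medians moved and 74 did not, and 11 list counts moved and 81 did not. With reads per library total, 11 medians moved and 81 did not. With the reads of Fcgr2b and Fcgr3 summed, 5 of their ratios moved and 3 did not. With 1 FPKM added to each value, the Fcgr1 ratio, amiodarone against vehicle, was 2.98. Against macrophage markers without Lyz2, the values relative to vehicle turned to 0.805 for Fcgr2b and 0.914 for Fcer1g with amiodarone. The sum of these markers rests on Lyz2. With 63 reads with vehicle, Fcgr1 is limited by depth.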

Other observations

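Interferon-responsive genes, fixed as a list because Fcgr1 is known to respond to interferon gamma, formed another pattern across the libraries. All 10 were higher with amiodarone than with vehicle beyond counting error and 9 at least 2-fold, with a median difference of 2.24. With both drugs, all 10 were lower than with amiodarone beyond counting error, against 15.0% of all genes. At least 2-fold lower were 6, against 0.475% of all genes in either direction, and the median of the list was -1.22. Irf7, a transcription factor of the interferon response, measured 14.69 FPKM with vehicle, 87.03 FPKM with amiodarone, 17.18 FPKM with dabigatran and 32.98 FPKM with both drugs. Ifit3 measured 36.89, 183.61, 42.55 and 62.66 FPKM, and Rsad2 2.28, 16.14, 3.15 and 6.25 FPKM. Fcgr1 was the activating receptor that was lower with both drugs than with amiodarone, with a ratio of 0.684, while Fcgr4, whose promoter window holds an ISRE core, had a ratio of 1.05. Whether Fcgr1 and these genes are linked was not tested.

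Platelet genes differed as well. Of 7 markers, 6 were lower with amiodarone than with vehicle beyond counting error, against 30.1% of all genes. All 7 were higher with both drugs than with amiodarone beyond counting error, against 21.2% of all genes. The markers summed to 82.69 FPKM with vehicle, 51.22 FPKM with amiodarone, 87.79 FPKM with dabigatran and 113.45 FPKM with both drugs. Among them Ppbp, a platelet chemokine, measured 31.77, 17.10, 40.30 and 52.38 FPKM. Gp6, the collagen receptor of platelets that signals through Fcer1g, belongs to this list. Fcer1g was higher with amiodarone than with vehicle, while 6 of these 7 markers were lower. Both Fcer1g and these markers were higher with both drugs than with amiodarone. The part of platelets in the level of Fcer1g was not tested.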
